A study of Mus musculus with 8 samples.

Results

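The Cyp1, Cyp2 and Cyp3 genes encode the cytochrome P450 enzymes that oxidise drugs, plant compounds, steroids and fatty acids in the liver. They were taken as all measured genes whose symbol is Cyp1, Cyp2 or Cyp3 followed by a letter and a number. Cyp2c70, an enzyme of bile acid hydroxylation in mice, was left out. There were 37 such genes in 13 subfamilies, among 16492 probe sets tested. Of these, Cyp2d13 is annotated as a transcribed pseudogene and the rest as protein-coding. Each gene had 1 probe set, a group of array probes summarised to 1 value. A subfamily is the set of genes that share the letter after the family number, such as Cyp2b. Cyp2a4, Cyp2a5 and Cyp3a41a, which the list of genes to be described also named, were not analysed here.

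Total liver RNA was measured on 8 arrays, 4 from wild-type and 4 from Amacr-/- C57BL/6 mice. The product of Amacr, a racemase acting on alpha-methylacyl-CoA thioesters, lets the side chain of bile acid intermediates be shortened and branched-chain fatty acids be broken down. All mice were males aged 3 to 3.5 months and the arrays of a group are labelled as biological replicates. The sources used here do not give how the Amacr allele was made, nor the diet, the feeding state or the hour of collection. The comparison asks how liver expression differs when this step of bile acid synthesis is missing.

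Cytochrome P450 enzymes sit in the endoplasmic reticulum, hold a heme group and receive electrons from a reductase. Their genes lie in tandem clusters of close relatives and are switched on by receptors that bind foreign compounds. The constitutive androstane receptor CAR (Nr1i3) acts mainly on Cyp2b10, the pregnane X receptor PXR (Nr1i2) on Cyp3a11, and the aryl hydrocarbon receptor (Ahr) on Cyp1a1 and Cyp1a2. PXR is also activated by some bile acids. Several Cyp2b, Cyp2c, Cyp2d and Cyp3a genes of mouse liver depend on sex through the rhythm of growth hormone.

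Values are log2 signals, so a difference of 1 is 2-fold. Array medians lay between 6.62 and 6.66. Amacr read 11.68 to 12.06 in wild type and 5.23 to 5.52 in knockout, so the gene's own signal separated the arrays as labelled. Knockout replicate 2 stood apart: its correlation with the other knockout arrays ran from 0.9782 to 0.9882 and its array quality weight was 0.2998, against 0.9349 to 1.75 for the rest. Differences of P450 genes given by array that it moves by over 1.5 times are also given without it. The 8 hepatocyte markers, albumin among them, had a mean log2 level of 13.73 to 13.74 in wild type and 13.66 to 13.76 in knockout. Of the marker lists for other cells, 4 of 5 measured exocrine pancreas genes stood higher in knockout replicate 1, all but Cela1 (list median 2.10 above the wild-type mean, against -0.10 to 0.18 in the other knockout arrays). Their part in the P450 values of that array was not tested. Kupffer cell markers, 10 of 10 with lower knockout means, had medians of 0.14, 0.00, -0.66 and -1.09 in knockout replicates 1 to 4. Among the wild-type arrays their medians ran from -0.50 to 0.45. Cholangiocyte and stellate cell markers had their highest list medians of the 8 arrays in knockout replicate 2. These were 0.605 (-0.10 to 0.23 in the other knockout arrays) and 0.56 (0.03 to 0.28), while sinusoidal endothelial markers stood at -0.07 there. The part of these cells in the P450 values of that array was not tested. In bulk liver, fewer cells of a type and less RNA per cell cannot be told apart.

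Upstream sequences are shown for the members with the largest differences, Cyp2b10, Cyp2c55 and Cyp2c37, and for Cyp2b9 and Cyp2b13, the neighbours of Cyp2b10 on chromosome 7. Each runs 5′ to 3′ from 250 bases before to 50 bases after the annotated start of the gene, from RefSeq on build GRCm38.p6, and all 5 lie on the + strand. Capitals mark 4 motifs searched on both strands: TATAAA, the TATA box, AGGTCA, the core that nuclear receptors such as CAR and PXR bind as repeats, GCGTG, the core of the aryl hydrocarbon receptor element, and TGACNNNGC, the core of the antioxidant response element bound by NRF2. The windows are chr7:25897408-25897707 for Cyp2b10, chr7:26061245-26061544 for Cyp2b13, chr7:26173159-26173458 for Cyp2b9, chr19:39006769-39007068 for Cyp2c55 and chr19:39992174-39992473 for Cyp2c37.
Cyp2b10: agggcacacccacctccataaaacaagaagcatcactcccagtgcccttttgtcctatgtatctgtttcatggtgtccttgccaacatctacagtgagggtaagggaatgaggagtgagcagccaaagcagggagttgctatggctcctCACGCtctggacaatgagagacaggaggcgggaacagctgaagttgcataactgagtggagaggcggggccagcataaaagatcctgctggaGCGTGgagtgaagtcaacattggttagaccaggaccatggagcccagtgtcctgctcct
Cyp2b13: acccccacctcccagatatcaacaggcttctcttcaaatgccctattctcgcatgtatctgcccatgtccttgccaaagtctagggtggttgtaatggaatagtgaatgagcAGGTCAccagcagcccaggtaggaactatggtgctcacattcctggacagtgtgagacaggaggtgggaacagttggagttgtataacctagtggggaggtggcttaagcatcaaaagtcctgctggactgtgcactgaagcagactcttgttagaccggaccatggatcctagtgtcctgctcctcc
Cyp2b9: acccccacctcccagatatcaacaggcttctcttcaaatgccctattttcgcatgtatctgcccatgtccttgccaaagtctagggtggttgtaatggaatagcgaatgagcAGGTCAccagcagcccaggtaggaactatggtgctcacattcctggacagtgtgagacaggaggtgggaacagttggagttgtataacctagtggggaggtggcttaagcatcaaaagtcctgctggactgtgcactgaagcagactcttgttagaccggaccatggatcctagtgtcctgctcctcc
Cyp2c55: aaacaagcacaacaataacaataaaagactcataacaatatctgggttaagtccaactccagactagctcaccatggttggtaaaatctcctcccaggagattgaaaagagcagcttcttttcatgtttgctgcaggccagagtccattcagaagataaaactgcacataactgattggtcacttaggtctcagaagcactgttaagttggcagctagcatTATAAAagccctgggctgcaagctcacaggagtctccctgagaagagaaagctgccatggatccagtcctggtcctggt
Cyp2c37: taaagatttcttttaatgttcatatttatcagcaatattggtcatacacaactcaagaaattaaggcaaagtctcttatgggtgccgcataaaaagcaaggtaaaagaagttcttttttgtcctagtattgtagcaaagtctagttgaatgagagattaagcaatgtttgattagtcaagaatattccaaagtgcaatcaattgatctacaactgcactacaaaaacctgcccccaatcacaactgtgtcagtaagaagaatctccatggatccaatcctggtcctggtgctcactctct
The windows of Cyp2b9 and Cyp2b13 were 99.3% identical over 300 aligned bases, while that of Cyp2b10 was 77.2% identical to each over 289 aligned bases. GCGTG stood in the Cyp2b10 window on each strand, with first bases at positions -101 and -9 from the start, and in neither neighbour. AGGTCA stood at -138 in both Cyp2b9 and Cyp2b13 and was not in the Cyp2b10 window. Cyp2c55 held TATAAA at -29, and none of the 4 motifs was in the Cyp2c37 window. No occurrence overlapped another in these 5 windows. The table held 34 windows for 31 of the 37 genes. Of these, 15 (44.1%) held TATAAA, 11 (32.4%) AGGTCA, 7 (20.6%) GCGTG and 1 (2.94%) TGACNNNGC. Over all 32851 windows of the same length in the table the shares were 13.6%, 16.3%, 32.4% and 12.4%. A match or its absence says nothing of binding, and known inducer elements of Cyp2b genes lie further upstream than these windows reach.

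No P450 gene of the set passed the test across the array, and their differences did not share a direction. By limma with Benjamini-Hochberg adjustment over all 16492 probe sets, 0 of 37 had an adjusted p under 0.05, against 0.115% of all probe sets (19). At an unadjusted p under 0.05 there were 7 of 37, or 18.9% against 11.3% of all probe sets. Of these, 6 had a higher knockout mean (16.2%, against 5.66%) and 1 a lower (2.70%, against 5.63%). The groups did not overlap for 3 of 37 (8.11%), against 6.67% of all probe sets, and all 3 were higher in knockout, where 3.42% of all probe sets were higher and 3.25% lower without overlap. Means were higher in knockout for 18 members and lower for 19, beside 55.4% higher and 43.8% lower over all probe sets. The median difference was -0.01 over the members and 0.02 over all probe sets. The extremes were broad, with 3 members differing by at least 0.75 in size (8.11%, against 1.18% of all probe sets). Those 3 were Cyp2b10, Cyp2c55 and Cyp2c37.

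**Figure D1:**
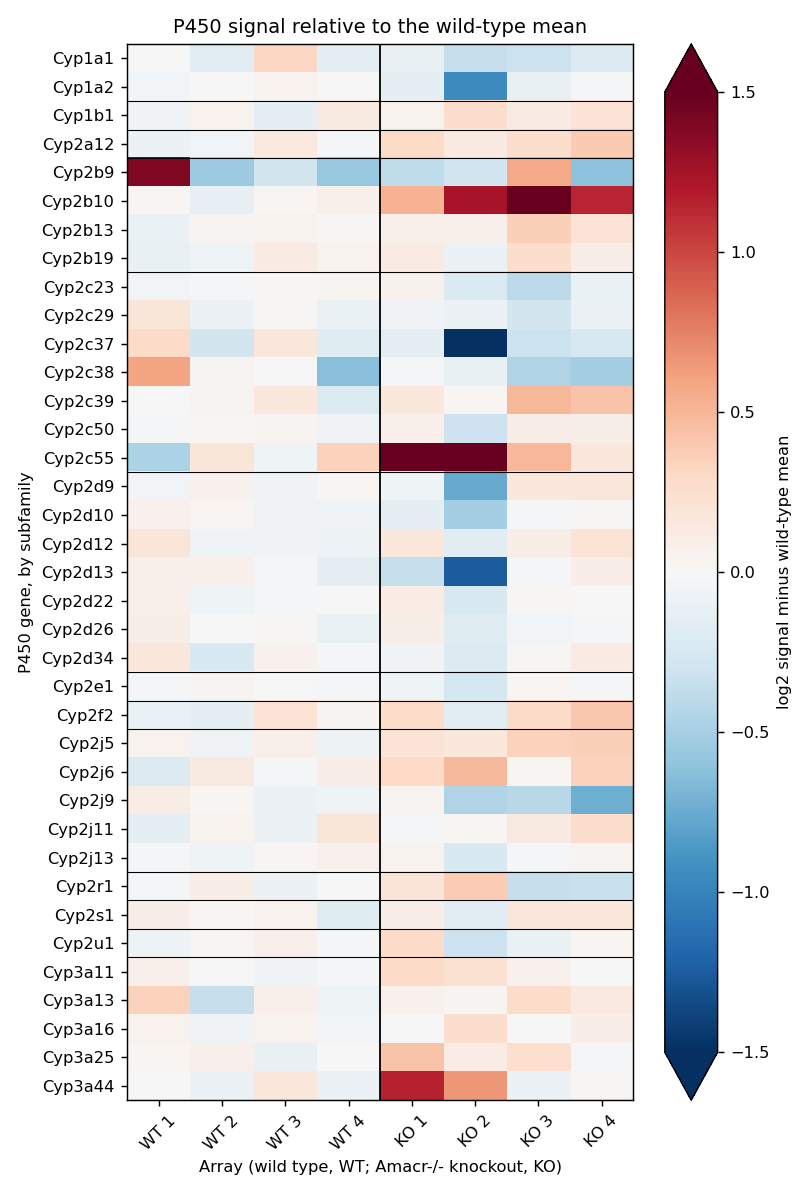
Log2 signal of the 37 P450 genes in each of the 8 arrays, minus the mean of the 4 wild-type arrays, with red for higher and blue for lower and horizontal lines between subfamilies (colours end at 1.5 in size). Cyp2b10 is red in all 4 knockout arrays, Cyp2c55 in knockout replicates 1 and 2 most of all, and knockout replicate 2 is blue for Cyp1a2, Cyp2c37 and most Cyp2d genes.

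Of the members whose groups did not overlap, Cyp2b10 had the largest difference. All 4 Cyp2b genes were dim, with mean signals below the median of all probe sets. With dim probe sets left out, Cyp2j5 alone did not overlap between groups. Cyp2b10, the classic target of CAR, read 4.89, 4.74, 4.89 and 4.94 across the 4 wild-type arrays and 5.39, 6.10, 7.34 and 6.01 across the 4 knockout arrays, in replicate order here and throughout. Every knockout array was above every wild-type array, and the knockout arrays differed among themselves far more than the wild-type arrays. The Cyp2b10 mean was 4.87 ± 0.09 in wild type, while knockout averaged 6.21 ± 0.82 (SD, n = 4 per group). The log2 difference was 1.35 (SE 0.34, 95% interval 0.58 to 2.11, limma adjusted p = 0.179) or 2.54-fold. Its adjusted p lay between 0.105 and 0.418 over 15 alternatives, so no call was made in any, and the difference was 0.97 without knockout replicate 3, the highest array. The Cyp2b10 signal was below the median of all probe sets (6.65) in every wild-type array and in every knockout array but replicate 3. How much of the signal was background was not tested, so the fold is one of signals.

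Cyp2b13, a P450 higher in female liver, read 4.61, 4.75, 4.76 and 4.73 in wild type and 4.79, 4.79, 5.07 and 4.92 in knockout. The groups did not overlap, but the closest arrays were 0.03 apart (4.76 and 4.79) and the deposited values have 2 decimals. The difference was 0.18 (SE 0.08, limma adjusted p = 0.445). Cyp2b9, also higher in females, read 6.36, 4.42, 4.69 and 4.40 in wild type and 4.59, 4.68, 5.53 and 4.35 in knockout. Here 1 wild-type array was the highest of all and the groups overlapped, with a difference of -0.18 (SE 0.44, limma adjusted p = 0.902) that was 0.28 without wild-type replicate 1. Knockout replicate 3 was the highest knockout array for Cyp2b10, Cyp2b13 and Cyp2b9 alike. Probe sequences were not used here, so signal shared between Cyp2b9 and Cyp2b13, or between other close relatives of the Cyp2c, Cyp2d and Cyp3a clusters, was not tested. The remaining member, Cyp2b19, known from skin, lay at 3.55 to 3.93 in all arrays. The 4 Cyp2b genes had a median difference of 0.14, and 3 of 4 had higher knockout means. That median was 0.08 without knockout replicate 3 and 0.22 without wild-type replicate 1.

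Cyp2c55, which CAR and PXR agonists induce, had the largest difference of the 37 genes over all 8 arrays but in part of the knockout livers. Cyp2c55 read 7.69, 8.34, 8.10 and 8.51 in wild type and 10.24, 11.50, 8.66 and 8.32 in knockout. Knockout replicates 1 and 2 were far above all wild-type arrays, replicate 3 was 0.15 above the highest of them and replicate 4 lay inside their range. Cyp2c55 averaged 8.16 ± 0.36 in wild type against 9.68 ± 1.47 with Amacr deleted (SD, n = 4 per group). The log2 difference was 1.52 (SE 0.62, 95% interval 0.12 to 2.92, limma adjusted p = 0.402) or 2.87-fold. Leaving out knockout replicate 2 gave 0.91, leaving out replicate 1 gave 1.33 and leaving out replicate 4 gave 1.97. Cyp2b10 differed more than Cyp2c55 without knockout replicate 2 (1.38) or 1 (1.62) and with arrays weighted by quality (1.34 against 1.14).

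The other Cyp2c genes, which oxidise arachidonic acid and retinoids, lie on chromosome 19 with Cyp2c55 and differed less or in the other direction. Cyp2c37 read 12.28, 11.71, 12.16 and 11.80 in wild type and 11.84, 9.60, 11.67 and 11.75 in knockout. A single array, knockout replicate 2, was far below the others, which lay within or just under the wild-type range. Its difference was -0.77 (SE 0.46, limma adjusted p = 0.562), or 1.71-fold lower, and -0.23 without knockout replicate 2. Cyp2c39, a retinoic acid hydroxylase, read 6.06, 6.09, 6.21 and 5.85 in wild type and 6.21, 6.08, 6.55 and 6.48 in knockout. The groups overlapped, with the higher knockout values in replicates 3 and 4 (difference 0.28, SE 0.12, limma adjusted p = 0.431). Cyp2c29, a phenobarbital-inducible member, read 13.59, 13.32, 13.43 and 13.31 in wild type and 13.36, 13.33, 13.14 and 13.32 in knockout. That is a difference of -0.13 (SE 0.08, 95% interval -0.32 to 0.07), or -0.07 with wild-type replicate 1 left out and -0.08 with knockout replicate 3 left out. Cyp2c50 read 13.55, 13.59, 13.61 and 13.51 in wild type and 13.64, 13.26, 13.67 and 13.65 in knockout. Its difference was -0.01, with 3 knockout arrays above and replicate 2 below all wild-type arrays, and 0.09 without that array. Over the 7 Cyp2c genes 2 had higher and 5 lower knockout means, with a median of -0.12 (-0.07 and -0.08 when the same arrays were left out).

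**Figure D2:**
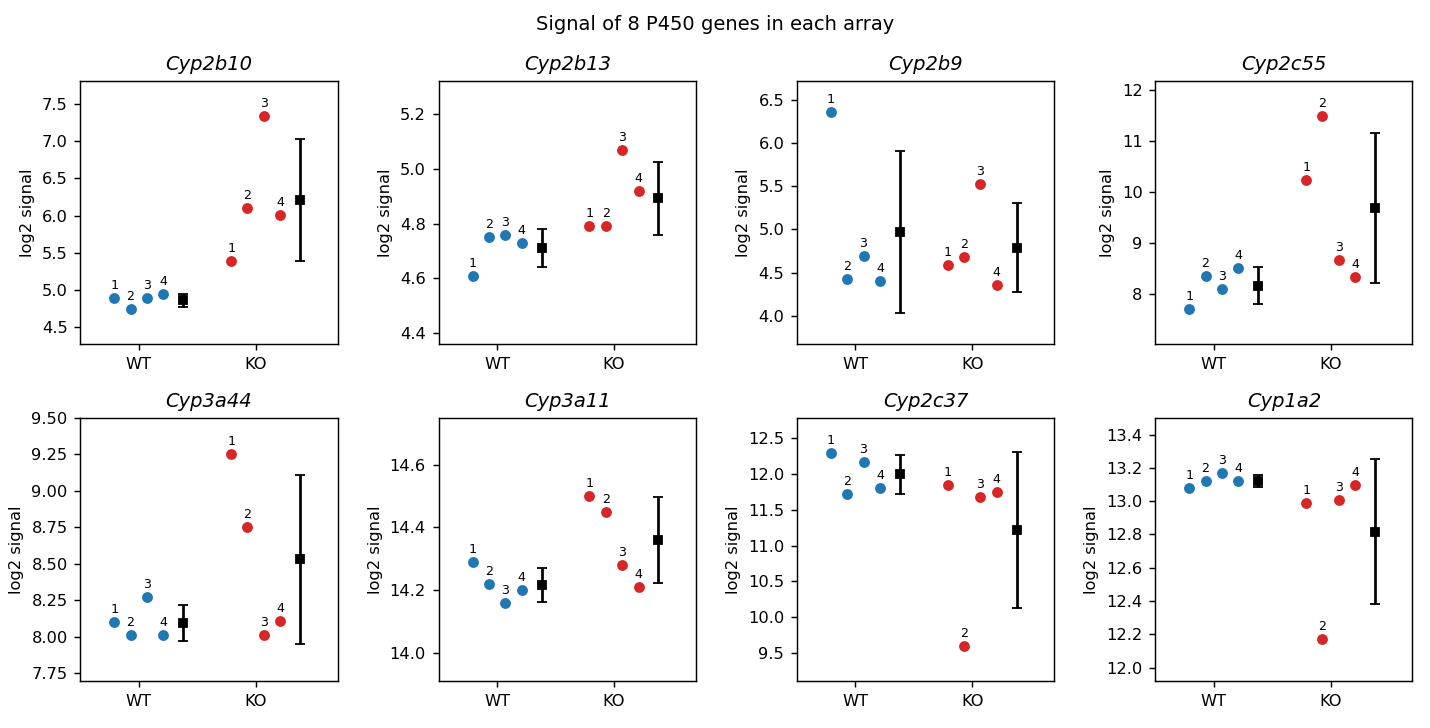
Log2 signal of 8 P450 genes in the wild-type (WT, blue) and Amacr-/- (KO, red) arrays, with the replicate number above each point and the mean ± SD of each group as a black square, each panel with its own scale. Cyp2b10 separates the groups, Cyp2c55, Cyp3a44 and Cyp3a11 have their highest points in knockout replicates 1 and 2, and Cyp2c37 and Cyp1a2 each have 1 low array, knockout replicate 2.

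All 5 Cyp3a genes, the subfamily that PXR controls and that oxidises steroids and bile acids, had higher knockout means, with a median of 0.14, and none passed the test. Cyp3a11, the main hepatic member, read 14.29, 14.22, 14.16 and 14.20 in wild type and 14.50, 14.45, 14.28 and 14.21 in knockout. Knockout replicates 1 and 2 were above all wild-type arrays and replicates 3 and 4 within their range (difference 0.14, SE 0.08, 95% interval -0.04 to 0.32, limma adjusted p = 0.534). The signal was near the top of the array, where probe saturation was not tested. Cyp3a44, higher in female liver, read 8.10, 8.01, 8.27 and 8.01 in wild type and 9.25, 8.75, 8.01 and 8.11 in knockout. The same pair of knockout arrays was high, and the difference of 0.43 (SE 0.25, limma adjusted p = 0.547) was 0.19 without knockout replicate 1. Cyp3a13, a member expressed in gut as well as liver, read 11.87, 11.18, 11.61 and 11.46 in wild type and 11.59, 11.57, 11.80 and 11.68 in knockout. All of its knockout values lay inside the wild-type range (difference 0.13, SE 0.14, and 0.01 or 0.24 without wild-type replicate 2 or 1). Cyp3a25 differed by 0.19 (SE 0.10) and Cyp3a16 by 0.09 (SE 0.08), the latter at 3.18 to 3.50 in all arrays.

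Both Cyp1a genes, targets of the aryl hydrocarbon receptor, had lower knockout means, and neither passed the test. Cyp1a1 read 4.91, 4.74, 5.22 and 4.78 in wild type and 4.80, 4.57, 4.59 and 4.71 in knockout. Its groups overlapped through knockout replicate 1 alone (difference -0.25, SE 0.11, limma adjusted p = 0.453, and -0.14 without wild-type replicate 3), at a signal in the lower part of the array. Cyp1a2, an enzyme of pericentral hepatocytes that oxidises caffeine and aromatic amines, read 13.08, 13.12, 13.17 and 13.12 in wild type and 12.99, 12.17, 13.01 and 13.10 in knockout. Knockout replicate 2 was the low one, and the difference of -0.31 (SE 0.18, limma adjusted p = 0.567) became -0.09 without it. Cyp1b1, found mostly outside hepatocytes, read 3.90, 4.00, 3.81 and 4.08 in wild type and 4.00, 4.21, 4.07 and 4.15 in knockout. It overlapped between groups, with a difference of 0.16 (SE 0.08, limma adjusted p = 0.490). Stellate cell markers had higher knockout means for 4 of 5, with a median of 0.15. Their mean level was 7.67 to 7.91 in wild type and 7.81 to 8.33 in knockout, highest in knockout replicate 2. Their part in Cyp1b1 was not tested.

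Among the Cyp2j genes, epoxygenases of arachidonic acid, single members differed in opposite directions. Cyp2j5 read 11.32, 11.21, 11.34 and 11.19 in wild type and 11.47, 11.42, 11.61 and 11.62 in knockout. The groups did not overlap, and the difference of 0.27 (SE 0.07, limma adjusted p = 0.225) is 1.20-fold. Cyp2j6 read 7.79, 8.13, 7.98 and 8.10 in wild type and 8.30, 8.49, 8.03 and 8.35 in knockout. Knockout replicate 3 was the 1 array inside the wild-type range (difference 0.29, SE 0.11, limma adjusted p = 0.379). Cyp2j9 was the 1 member with an unadjusted p under 0.05 and a lower knockout mean. It read 6.94, 6.86, 6.74 and 6.78 in wild type and 6.87, 6.38, 6.41 and 6.10 in knockout, so that knockout replicate 1 lay among the wild-type values (difference -0.39, SE 0.14, limma adjusted p = 0.356). Cyp2j11 and Cyp2j13 differed by 0.10 (SE 0.09) and -0.04 (SE 0.08).

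The lone measured member of Cyp2a, Cyp2a12, which hydroxylates testosterone and bile acids in mice, had a higher knockout mean by a small margin. Cyp2a12 read 12.71, 12.76, 12.95 and 12.78 in wild type and 13.09, 12.93, 13.06 and 13.19 in knockout. Knockout replicate 2, 0.02 below wild-type replicate 3, was the 1 overlap (difference 0.27, SE 0.08, 95% interval 0.09 to 0.45, limma adjusted p = 0.262, 1.20-fold). Cyp2f2, known for oxidising naphthalene in lung and placed near the portal vein in liver, read 13.68, 13.63, 13.99 and 13.82 in wild type and 14.05, 13.62, 14.07 and 14.19 in knockout. There too 3 knockout arrays were above all wild-type arrays and replicate 2 was not (difference 0.20, SE 0.13, limma adjusted p = 0.593, 0.32 without replicate 2 and 0.13 without replicate 4).

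Cyp2e1, the pericentral enzyme of ethanol and acetaminophen oxidation, read 14.54, 14.60, 14.56 and 14.55 in wild type and 14.50, 14.30, 14.59 and 14.54 in knockout. Its values overlapped and differed by -0.08 (SE 0.07, 95% interval -0.25 to 0.09), and by -0.02 without knockout replicate 2, the lowest array. Cyp2d9, a testosterone hydroxylase higher in males, read 13.48, 13.59, 13.47 and 13.56 in wild type and 13.46, 12.77, 13.68 and 13.70 in knockout. Its difference of -0.12 (SE 0.19, limma adjusted p = 0.838) turned to 0.09 without knockout replicate 2, the low array. Cyp2d26 read 13.64, 13.56, 13.57 and 13.45 in wild type and 13.64, 13.37, 13.51 and 13.53 in knockout, a difference of -0.04 (SE 0.08) that was 0.005 without replicate 2. The 7 Cyp2d genes, which lie together on chromosome 15, had 6 lower and 1 higher knockout means and a median of -0.04, which was 0.03 without knockout replicate 2. The lowest difference among them, -0.38 (SE 0.26), was that of the pseudogene Cyp2d13.

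Cyp2r1, the vitamin D 25-hydroxylase of liver, read 8.48, 8.59, 8.41 and 8.50 in wild type and 8.69, 8.88, 8.15 and 8.16 in knockout. The knockout arrays fell on both sides of wild type, replicates 1 and 2 above and replicates 3 and 4 below every wild-type array, with an SD of 0.37 against 0.07 in wild type. The difference of means was -0.03 (SE 0.16), and -0.16 without knockout replicate 2. Cyp2u1, a fatty acid hydroxylase, read 6.12, 6.23, 6.27 and 6.16 in wild type and 6.48, 5.89, 6.09 and 6.22 in knockout. Cyp2s1, an enzyme known from epithelia, read 6.01, 5.95, 5.97 and 5.73 in wild type and 6.01, 5.76, 6.09 and 6.07 in knockout. Both overlapped between groups, with differences of -0.03 (SE 0.12) and 0.07 (SE 0.10), which were 0.07 and 0.14 without knockout replicate 2. The 12 members not given by array had 5 higher and 7 lower knockout means, differences from -0.38 to 0.19 and limma adjusted p from 0.511 to 0.933.

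**Figure D3:**
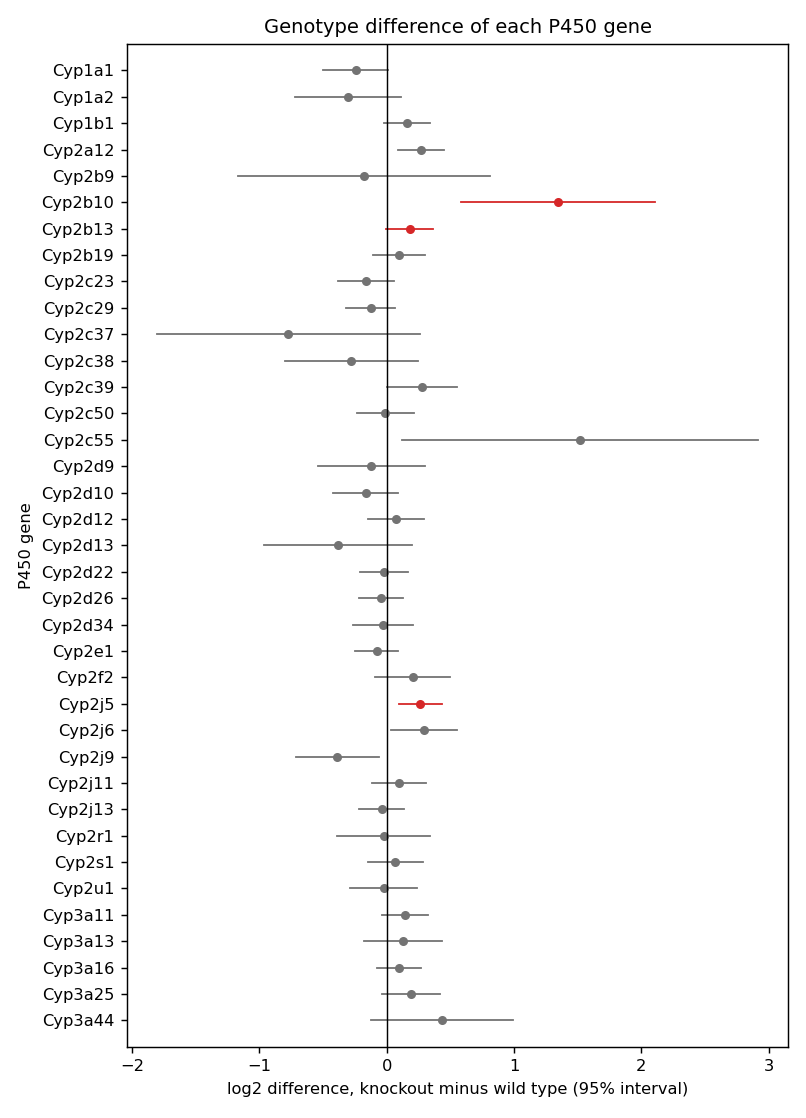
Log2 difference of each of the 37 P450 genes between the 4 knockout and 4 wild-type arrays (points) with its 95% interval from limma (lines, not adjusted for the number of genes), red where the groups do not overlap. Most points lie within 0.4 of 0, Cyp2b10 and Cyp2c55 stand at 1.35 and 1.52, and the widest intervals belong to Cyp2c55, Cyp2c37 and Cyp2b9.

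The spread among the knockout livers rested in part on replicate 2. The knockout SD exceeded the wild-type SD for 29 of 37 members (78.4%, against 66.7% of all probe sets), and for 20 (54.1%, against 51.6%) without that array. Knockout replicate 2 alone held the lowest value of all 8 arrays for 14 members (37.8%, against 24.5% of all probe sets). These included 6 of the 7 Cyp2d genes, both Cyp1a genes, Cyp2c37, Cyp2c50, Cyp2e1 and Cyp2f2, and none of the Cyp2b or Cyp3a genes. Without that array 25 members had higher and 12 lower knockout means, beside 9487 higher and 6971 lower of all 16492 probe sets. The median was 0.09 beside 0.03 over all probe sets, and the groups did not overlap for 6 of 37, beside 16.1% of all probe sets. The 6 were Cyp2b10, Cyp2b13, Cyp2j5, Cyp2a12, Cyp2c50 and Cyp2f2, all higher in knockout. Over all probe sets 1666 were higher and 995 lower without overlap. With replicate 1 or replicate 4 of the knockout left out instead, the count was also 6, of which 3 and 1 were lower in knockout, beside 10.1% and 9.27% of all probe sets.

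Some genes outside the set were also at an extreme in knockout replicate 2, and others of the same lists were not. Glul, glutamine synthetase of the hepatocytes around the central vein, read 11.79 there against 12.32 to 12.47 in the other knockout arrays and 12.48 to 12.69 in wild type. Over the 11 measured pericentral genes outside the P450 set, 9 had lower knockout means, the median was -0.14, and their mean level ran from 9.85 to 9.97 in wild type and from 9.56 to 9.79 in knockout. Without overlap 3 of the 11 were lower in knockout and 0 higher, beside 3.25% and 3.42% of all probe sets. Those lower were Glul, Slc1a2 and Gulo, the last with its lowest value in knockout replicate 3 (11.55). The median of the 11 genes stood -0.06, -0.13, -0.14 and -0.08 from the wild-type mean in knockout replicates 1 to 4. By that median replicate 2 was not the lowest, but the mean level of 9.56 was its own, the lowest of the 8 arrays. Glul, Slc1a2 (7.83), Axin2 (5.96), Lgr5 (6.23) and Cpox (8.64) had their lowest values of all 8 arrays in replicate 2. Oat (13.45), Rgn (13.55) and Tbx3 had their highest knockout values there. Lcn2, an acute phase protein, read 10.63 in knockout replicate 2 against 6.93 to 8.50 in the other knockout arrays and 7.09 to 8.85 in wild type. The 9 inflammation and acute phase genes had a median difference of 0.01 and a mean level of 10.08 to 10.78 in wild type and 9.87 to 10.90 in knockout. Their median stood 0.12, 0.04, -0.62 and 0.05 from the wild-type mean in knockout replicates 1 to 4. The mean level of 10.90 was that of replicate 2, the highest of the 8 arrays. Saa1 (12.03), Saa2 (9.47), Lcn2 and Orm2 (10.09) had their highest values of all 8 arrays there. For Saa1 and Saa2 the margin over wild-type replicate 4 (11.98 and 9.43) was narrow. Crp, Fga, Cxcl1 and Socs3 were below their wild-type means in replicate 2. The part of zonation and of inflammation in the low P450 values of this array was not tested.

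Among the receptors and other regulators of the set, 0 of 17 measured passed the limma test. An unadjusted p under 0.05 was found for 6, beside 11.3% of all probe sets. By mean 14 of 17 were lower in knockout (median -0.20, but -0.11 without knockout replicate 2 and -0.30 without wild-type replicate 4). Nr1i3 (CAR) read 10.64, 10.39, 10.08 and 9.83 in wild type and 9.99, 9.17, 10.77 and 10.16 in knockout. Its groups overlapped (difference -0.21, SE 0.31, 95% interval -0.91 to 0.49), with the lowest value in knockout replicate 2 and the highest in replicate 3, and the difference was 0.07 without replicate 2. Nr1i2 (PXR) read 7.31, 7.14, 7.04 and 7.24 in wild type and 7.23, 7.16, 7.77 and 7.47 in knockout. Replicates 3 and 4 were its high knockout arrays (difference 0.23, SE 0.13, limma adjusted p = 0.562), a different pair from the one high for Cyp2c55, Cyp3a11 and Cyp3a44. Ahr read 9.08, 9.15, 8.80 and 8.93 in wild type and 8.99, 8.86, 8.65 and 8.67 in knockout (difference -0.20, SE 0.11, limma adjusted p = 0.518). For Rxra, the shared partner of CAR and PXR, all knockout arrays were below all wild-type arrays by a narrow margin (difference -0.27, SE 0.11, limma adjusted p = 0.385). Without overlap, 4 of the 17 regulators were lower in knockout and 1 higher, beside 3.25% and 3.42% of all probe sets. The other lower ones were Ppara (-0.63, limma adjusted p = 0.116), Nr1h4 (-0.49, 0.136) and Nr0b2 (-0.58, 0.225). The higher one was Stat5b (0.22, limma adjusted p = 0.374). Transcript levels of a receptor do not show its activity.

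Of 24 other measured genes that CAR, PXR or the aryl hydrocarbon receptor control, 18 had higher and 6 lower knockout means, with a median of 0.15 (0.24 without knockout replicate 3). By limma 0 passed the test and 9 of 24 had an unadjusted p under 0.05, beside 11.3% of all probe sets. The groups did not overlap, with knockout higher, for 6 of 24, beside 3.42% of all probe sets. These were Ephx1, Gsta2, Gstm3, Aldh1a7, Fmo5 and Ces2a. With knockout lower there was 1, beside 3.25%: Tiparp, an aryl hydrocarbon receptor target. Ephx1, the microsomal epoxide hydrolase, read 12.18, 12.05, 12.08 and 12.04 in wild type and 12.60, 12.46, 12.40 and 12.59 in knockout, a difference of 0.43 (SE 0.07, limma adjusted p = 0.0702). Its knockout arrays lay close together, unlike those of Cyp2b10. Gstm3, a glutathione transferase, read 10.46, 10.93, 10.78 and 11.03 in wild type and 12.36, 13.50, 11.04 and 11.09 in knockout (difference 1.20, SE 0.49, limma adjusted p = 0.406, and 0.70 without knockout replicate 2). Its high arrays were knockout replicates 1 and 2, as for Cyp2c55 in the same livers. Nqo1, a quinone reductase, also had its 2 highest values there, 7.56 and 8.38 against 6.55 to 7.11 in wild type (difference 0.45, and 0.09 without replicate 2). Which receptor or other factor, NRF2 among them, stood behind these values was not tested.

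For the proteins that serve P450 enzymes, 0 of 6 measured genes passed the limma test. An unadjusted p under 0.05 was found for 1, beside 11.3% of all probe sets. Alas1, the rate-limiting enzyme of heme synthesis and itself a CAR and PXR target, read 12.41, 13.55, 13.16 and 11.84 in wild type and 11.30, 11.16, 12.12 and 11.94 in knockout. Its lowest values were in knockout replicates 1 and 2 and the groups overlapped through wild-type replicate 4 (difference -1.11, SE 0.37, limma adjusted p = 0.315). Cyb5a and Cyb5r3, which pass electrons to some P450 enzymes, differed by -0.03 (SE 0.06) and -0.07 (SE 0.07). The reductase Por was not analysed here.

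**Figure D4:**
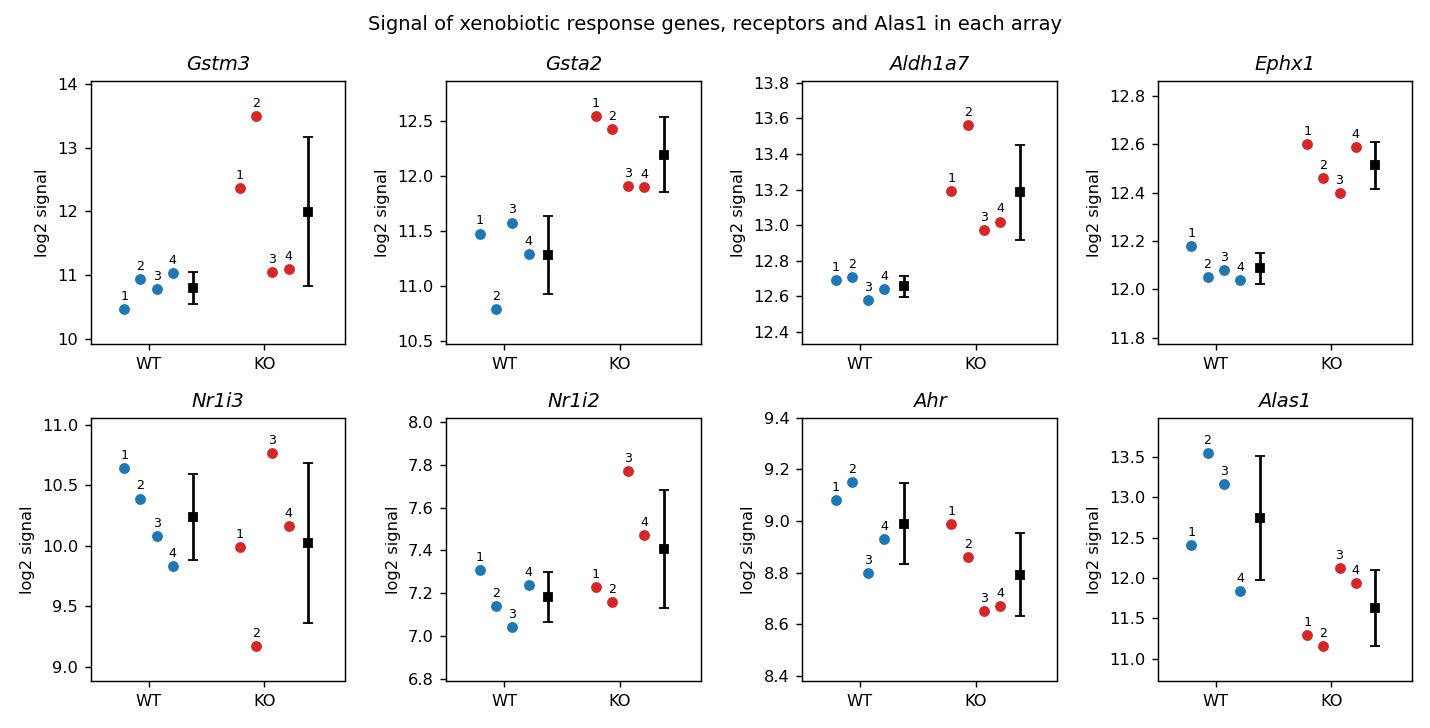
Log2 signal of xenobiotic response genes (Gstm3, Gsta2, Aldh1a7, Ephx1), receptors (Nr1i3, Nr1i2, Ahr) and Alas1 in the wild-type (WT, blue) and Amacr-/- (KO, red) arrays, with replicate numbers above the points and mean ± SD as black squares, each panel with its own scale. Gstm3 has its highest points in knockout replicates 1 and 2, Ephx1 separates the groups, the receptors overlap, and Alas1 is lowest in knockout replicates 1 and 2.

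The cytochrome P450 genes of other families included 0 of 14 past the limma test and 6 with an unadjusted p under 0.05, beside 11.3% of all probe sets. Knockout means were higher for 8 and lower for 6. Cyp4a12a, a fatty acid hydroxylase higher in males, read 12.14 to 12.45 in wild type and 12.67 to 13.40 in knockout without overlap (difference 0.79, SE 0.17, limma adjusted p = 0.136). Of the P450 genes named above as dependent on sex, Cyp2d9 of the male type and Cyp2b9 of the female type had differences of -0.12 and -0.18, while Cyp2b13 and Cyp3a44 of the female type had 0.18 and 0.43. The sign of Cyp2d9 turned without knockout replicate 2 and that of Cyp2b9 without wild-type replicate 1. Outside the set, 3 of 6 male-type and 3 of 5 female-type genes had higher knockout means, and 1 of these 11 passed the test. Elovl3, a fatty acid elongase higher in male liver, read 10.02, 10.93, 10.42 and 10.79 in wild type and 12.04, 11.83, 11.89 and 11.72 in knockout. Every knockout array was above every wild-type array, and Elovl3 rose by 1.33 (SE 0.18, limma adjusted p = 0.0457). The call was lost, with adjusted p from 0.0537 to 0.150, whichever single array was left out.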

How the data were processed

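Per the submitters' processing notes, the authors made the values with RMA, which corrects background, normalizes between arrays and summarises probes. The deposited table held log2 values with 2 decimals, 1 per probe set and array. The array type, software version, filters and batches are not given in the sources used here. Since RMA makes the arrays' distributions alike, an overall rise or fall would be hidden.

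Of 16556 probe sets, 64 array controls were left out and 16492 tested. Genes were named from GEO's platform annotation by Entrez number and placed on chromosomes with a RefSeq table. The genotypes were compared in limma 3.58.1 under R 4.3.3 (lmFit and eBayes, genotype as the only term, 8 arrays, two-sided, Benjamini-Hochberg over all probe sets, threshold 0.05). The median SE of a difference was 0.09, set by 4 arrays a group. With no detection calls or scan dates, neither background nor batch was tested. The steps were tested on simulated data.

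The members and lists were chosen with earlier results of these data known. Values by array are given for 25 members: those with an unadjusted p under 0.05, groups that did not overlap or a difference of at least 0.75, the brightest of each subfamily and a fixed set. Of the genes named from the other lists, Nr1i2, Nr1i3 and Ahr were to be given whatever their values, and Elovl3 was given because it passed the test. The rest were picked with their values known. The alternatives were arrays left out, a replicate block, a filter on dim probe sets, control probe sets kept, 2 rescalings, another variance model and array weights.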

Additional observations from a re-analysis of the deposited data

Results flagged for a closer look

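For each of the 37 genes, the highest and the lowest of the 4 arrays in a group were compared with the rest of that group. In 5 of the 74 groups the gap to the nearest array exceeded Dixon's 95% critical value for its share of the group's whole range. Chance alone flags about 5% of groups.

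Of the 5, 3 were low values in knockout replicate 2. Cyp1a2 read 12.17 there against 12.99 to 13.10 in the other knockout arrays. Cyp2c37 read 9.60 against 11.67 to 11.84, and Cyp2c50 read 13.26 against 13.64 to 13.67. The other two were high values in wild-type replicate 1, where Cyp2b9 read 6.36 against 4.40 to 4.69 and Cyp2d12, a dim probe set, read 5.04 against 4.78 to 4.81.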

How the results depend on the processing

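No P450 gene of the set was called under any of the 16 alternatives, and their median difference ran from -0.02 to 0.09 with 1 array left out. The number of all probe sets called moved from 19 to 2, 3, 3 and 11 without wild-type replicates 1 to 4 and to 8, 39, 7 and 5 without knockout replicates 1 to 4. It was 39 without wild-type replicate 4 and knockout replicate 2 together, 75 with array weights, 53 with dim probe sets left out, 36 with an intensity trend and robust variances, and 38 after a second quantile normalization. The cause was not tested. The number of members without overlap was 3, and 3 to 6 with 1 array left out, 7 of 37 without both named arrays (23.9% of all probe sets) and 1 of 22 when dim probe sets were left out (9.83% of the 8248 tested), where fewer arrays or genes enter by construction. Differences near 0 changed sign, none of them called. With array weights Cyp2c50 was 0.0479, Cyp2d9 0.0309 and Cyp2u1 0.0320, and after quantile normalization Cyp2r1 was 0.0036. With 1 array left out, Cyp2c50 ran from -0.0483 to 0.0883, Cyp2d9 from -0.222 to 0.0883, Cyp2d26 from -0.0850 to 0.0050 and Cyp2u1 from -0.128 to 0.0683, each highest without knockout replicate 2. Under the same settings Cyp2r1 ran from -0.162 to 0.0817, highest without knockout replicate 3, and Cyp2b9 from -0.428 to 0.284, highest when wild-type replicate 1 was dropped. The CAR transcript Nr1i3 was 0.0717 without knockout replicate 2, an alternative chosen after seeing the data, as was the SD count without it. Dropping both wild-type replicate 4 and knockout replicate 2, Cyp2c50 was 0.0700, Cyp2d9 0.10 and Cyp2u1 0.0567. With the replicate number as a block, 1 probe set and 0 members were called, and Elovl3 had a limma adjusted p of 0.195. Same-numbered arrays shared only a number: their deviations correlated at 0.05, -0.03, 0.09 and -0.12. Only wild-type replicate 1 and knockout replicates 1 and 3 correlated best with their own number in the other group.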

Other observations

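Some genes of sex-dependent liver expression outside the P450 set differed between single animals, all labelled male, and others did not. Hsd3b5, a male-type steroid reductase, read 9.34 in knockout replicate 2 against 11.76 to 12.34 in the other knockout arrays and 12.29 to 13.00 in wild type. Slco1a1, a male-type organic anion transporter, read 9.26 there against 10.84 to 11.54 and 11.46 to 11.70. Cyp7b1, an oxysterol hydroxylase higher in males, read 10.83 there against 12.30 to 13.06 and 11.77 to 12.66. The other male-type genes measured, Elovl3 (11.83), Cyp4a12a (12.67) and C9 (12.52), were above their wild-type means in that array. In wild-type replicate 1, where Cyp2b9 was at 6.36, Acot3, a peroxisomal thioesterase, read 10.55, while the rest of the wild-type group lay at 7.73 to 8.64. The other female-type genes measured outside the set did not stand out in that array. Sult3a1 (3.67), Hao2 (3.69), Cyp4b1 (8.64) and Cyp17a1 (8.22) lay within the range of the other wild-type arrays. Bcl6, a repressor of female-type liver genes, read 9.22 in wild-type replicate 1, 9.60 in wild-type replicate 4 and 8.92 in knockout replicate 2, against 6.81 to 7.06 in the other 5 arrays. Apart from Elovl3, given above, none of these genes passed the limma test between genotypes, and they were chosen after their values were seen.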
